A study of Rattus norvegicus with 107 samples.

Results

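The brains of Sprague Dawley rat pups at postnatal day (PND) 15 were compared with those at PND 10, over the 5 days in which the rat forebrain is known to begin most of its myelination and much of its synapse growth. The 12 brain samples, 6 of each age, were chosen by their age and tissue labels alone from the 107 samples of a series that followed the suckling period, of which 54 were brain and 53 colon. Both groups were untreated pups of the same strain, born to timed pregnant dams in litters evened out at birth, and neither carried a transgene or received an agent, so that age was the only labelled difference. RNA came from a small piece of the right hemisphere after a mid-coronal cut, and neither the brain region of that piece nor the litter of any pup is given in the sources used here. Whether pups were pooled is not given either, so that p-values measure the spread between these samples. Labelled cRNA was hybridized to Illumina RatRef-12 BeadChips with 22523 probes, and the signals were quantile normalized over all arrays and taken to log2.

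Myelin is the compacted membrane that mature oligodendrocytes wrap around axons. Oligodendrocytes arise from dividing precursor cells that carry the receptor Pdgfra, and on maturing they switch on the genes of myelin proteins and of the galactolipids and cholesterol that make up the sheath. Over the same days of rodent life, cortical neurons stop extending axons and add synapses, glutamate and GABA receptors change their subunits, fast-spiking interneurons acquire their channels and calcium-binding proteins, and the eyes open.

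The 12 arrays gave 10412 to 12016 detected probes (detection p under 0.05) at PND 15 and 10433 to 11958 at PND 10, and each array had a Pearson correlation of at least 0.9809 with every other array of its age. The raw array medians fell into a brighter and a dimmer set in both ages, with 2 bright arrays at PND 15 and 3 at PND 10. The lowest normalized signal of a detected probe was 66.3 to 72.2 per array, and levels near it carry little information. Genes that define neurons, astrocytes and oligodendrocytes (Snap25, Gfap, Mog) were detected in all 12 samples, and 5 of the 7 measured pituitary genes were detected in none. The PND 15 sample numbered 6 stood apart from the other 5 of its age in 7 named genes, more than any other sample, and without it 1366 probes were called in place of the 1753 given next, with 17 myelin protein genes higher and 23 cell cycle genes lower.

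Of the 22523 probes, 1753 (7.78%) differed between the ages at an adjusted p under 0.01 in limma with Benjamini-Hochberg adjustment, the threshold of every call below. Of these, 887 (3.94%) were higher and 866 (3.84%) lower at PND 15, and 1277 probes (5.67%) had no overlap between the 6 samples of each age. Among the 13337 named genes, read at their brightest probe, 1201 (9.01%) were called, 525 (3.94%) higher and 676 (5.07%) lower. These shares are the ones to set beside each list count below. Of the 13337, 7015 were detected in all 6 samples of at least 1 age. Among the 9626 probes detected so and tested alone, 963 were called higher and 991 lower. Lists of well-detected genes therefore lie nearer to the background than the shares of all named genes make them look. All log2 changes are PND 15 minus PND 10, and the median over all probes was -0.01. At PND 22, 1541 probes (6.84%) were higher and 1637 (7.27%) lower than at PND 10.

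Some of the probes called higher had also been lower at PND 10 than before it, or were higher in colon too. Against PND 7, 2350 probes (10.4%) were called at PND 15, 1166 higher (5.18%) and 1184 lower (5.26%), and at PND 10 220 (0.977%) were higher and 340 (1.51%) lower than at PND 7. In colon 437 probes (1.94%) were called between PND 15 and PND 10, 292 higher (1.30%) and 145 lower (0.644%). Of the 887 probes higher at PND 15 in brain, 546 were also higher at PND 15 than at PND 7, while 173 had been called lower at PND 10 than at PND 7, and 121 of those 173 were also called higher in colon between the same ages. Of the 714 others, 63 were called higher in colon. Of the 866 lower probes, 674 were also lower than at PND 7, 3 had been called higher at PND 10 than at PND 7, and 74 were called lower in colon. Atp5mk, a small subunit of the mitochondrial ATP synthase, is an example. Its signal in brain was 997, 1259 and 1402 (lowest, median and highest) at PND 15, against 348, 413 and 590 at PND 10 (fold change 2.84, adjusted p = 1.90e-13), it averaged 1011 at PND 7, and its log2 change in colon was 1.19. Ptn, a heparin-binding growth factor of the nervous system, averaged 583 ± 80.3 at PND 15 and 261 ± 25.8 at PND 10 (SD, n = 6 each) in brain and 527 at PND 7, with a log2 change of 1.15 in brain and 1.05 in colon. Rbbp7, a histone-binding chromatin protein, moved likewise, by 1.03 in brain and 0.87 in colon. Age and any processing round shared by the samples of an age cannot be told apart. For most groups below, the calls that did not hold at PND 15 against PND 7, or that were also made in colon, are therefore given too. Both checks have limits. The PND 7 comparison uses the same 6 PND 15 samples, so a shift shared by those samples would pass it. Raw medians of the PND 7 brain arrays ran from 50.4 to 119.7, against 42.9 to 90.6 at PND 10. A probe not detected in colon could hardly be called there. Of the 887 higher probes 700, and of the 866 lower ones 800, were detected in all 6 colon samples of PND 15 or PND 10.

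**Figure D1:**
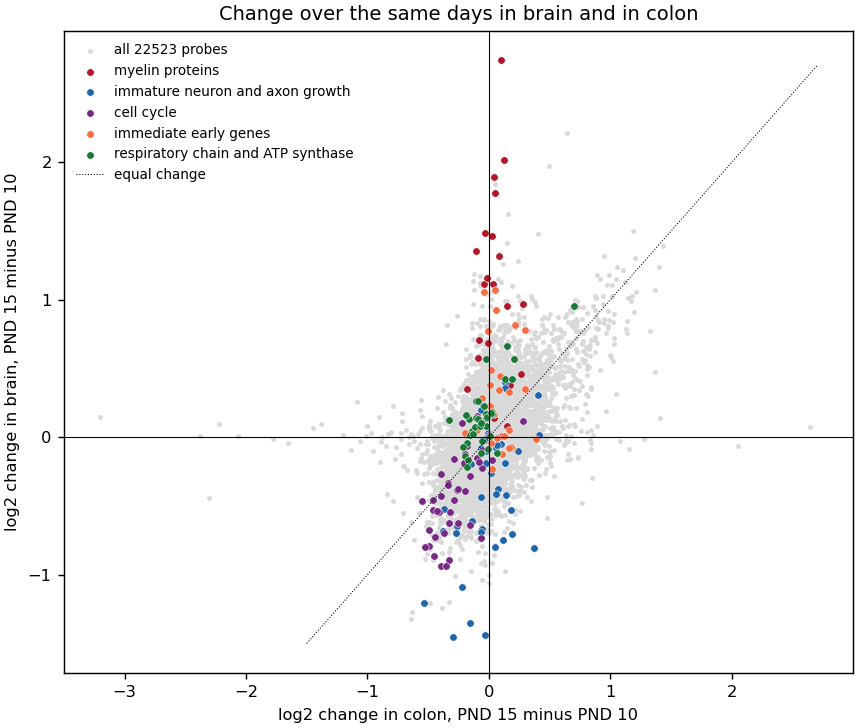
Change of each probe between PND 10 and PND 15 in brain (vertical axis, log2) against its change in colon over the same days (horizontal axis, log2); grey points are all 22523 probes, coloured points the members of 5 gene lists, and the dotted line marks equal change. Myelin proteins and most immature neuron genes lie along the vertical axis, while a tail of grey probes runs along the dotted line towards the upper right.

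The largest rises belonged to myelin. Of 22 measured genes of compact and non-compact myelin, 17 were called higher and none lower, with a median log2 change of 1.04, against -0.01 over all probes and 3.94% of named genes called higher. All 22 changes were above 0. All 17 were also higher than at PND 7. None was called in colon, where 7 of the 17 were detected throughout an age. For 15 the brain change exceeded the colon change in a test of that difference. For each of the 17, all PND 15 samples lay above all PND 10 samples.

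Mal, a proteolipid that sorts lipids and proteins to the myelin membrane, changed most of all named genes. Its signal was 991, 1529 and 2149.8 (lowest, median and highest) at PND 15, against 145, 240.3 and 280.3 at PND 10. The gene lies at chr3:135317664-135341423 of GRCr8, and Mbp at chr18:78130652-78241174. The ranges lay far apart, and it was 6.69-fold higher at PND 15 (log2 change 2.74 ± 0.17 SE, adjusted p = 9.67e-19). The two-sided exact permutation p was 0.00216, the smallest that 6 against 6 samples allow, as for each gene below whose samples do not overlap. Mal was named by a rule that required no overlap, which fixes this p in advance. For Mal and the other genes named by that rule, this p adds no support. Mbp, myelin basic protein, which binds the cytoplasmic faces of the membrane together, had 1112, 1635 and 1870.2 at PND 15, against 233, 419.9 and 584 at PND 10. Every PND 15 sample stood above every PND 10 sample, and it was 4.04-fold higher (log2 change 2.01 ± 0.20 SE, adjusted p = 1.82e-11). Mog, a glycoprotein of the outermost myelin surface, had 846, 1026 and 1407 at PND 15, against 240.3, 260.4 and 422 at PND 10. It was 3.72-fold higher (log2 change 1.90 ± 0.15 SE, adjusted p = 2.07e-14), and 1 PND 10 sample stood above the other 5. Mobp, a basic protein of the major dense line, had 1162, 1931 and 2336 at PND 15, against 332, 572 and 795 at PND 10 and was 3.43-fold higher (log2 change 1.78 ± 0.26 SE, adjusted p = 4.42e-07). Its samples were spread widely at both ages, and the ranges stayed apart.

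Cnp, an enzyme of non-compact myelin, averaged 2620.1 ± 584 at PND 15 and 1193 ± 156 at PND 10 (SD, n = 6 each; log2 change 1.12 ± 0.13 SE, adjusted p = 4.01e-09). Cldn11, the claudin that seals the layers of central myelin, averaged 682 ± 181 at PND 15 and 267 ± 72.7 at PND 10 (log2 change 1.36 ± 0.17 SE, adjusted p = 2.84e-08). Tf, transferrin, made by oligodendrocytes to carry iron, averaged 1967 ± 619 at PND 15 and 694 ± 184 at PND 10 (log2 change 1.48 ± 0.19 SE, adjusted p = 1.70e-08). These 3 genes were clearly measured at both ages, so that their folds do not rest on signals near background. Ermn, a cytoskeletal protein of late oligodendrocytes, averaged 320.5 ± 69.5 at PND 15 and 117 ± 25.1 at PND 10 (log2 change 1.47 ± 0.12 SE, adjusted p = 4.14e-14), and 1 of the 6 PND 10 samples was not detected. Mag, an adhesion molecule of the membrane next to the axon, averaged 111 ± 17.5 at PND 15 and 68.3 ± 7.19 at PND 10 (log2 change 0.69 ± 0.10 SE, adjusted p = 1.15e-06). Opalin, a membrane protein of mature oligodendrocytes, averaged 147 ± 40.3 at PND 15 and 64.0 ± 4.04 at PND 10 (log2 change 1.16 ± 0.10 SE, adjusted p = 1.19e-13). Mag was detected in 2 and Opalin in 1 of the 6 PND 10 samples, so the folds of both are read against background there. The others called were Klk6, Hapln2, Pllp, Sirt2, Gpr37, Tspan2 and Omg, with log2 changes of 0.46 to 1.32. Septin8, a cytoskeletal septin outside the list, also stood among the 12 largest rises, at 1838 ± 334 at PND 15 and 657 ± 94.9 at PND 10 (log2 change 1.48 ± 0.09 SE, adjusted p = 9.67e-19).

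**Figure D2:**
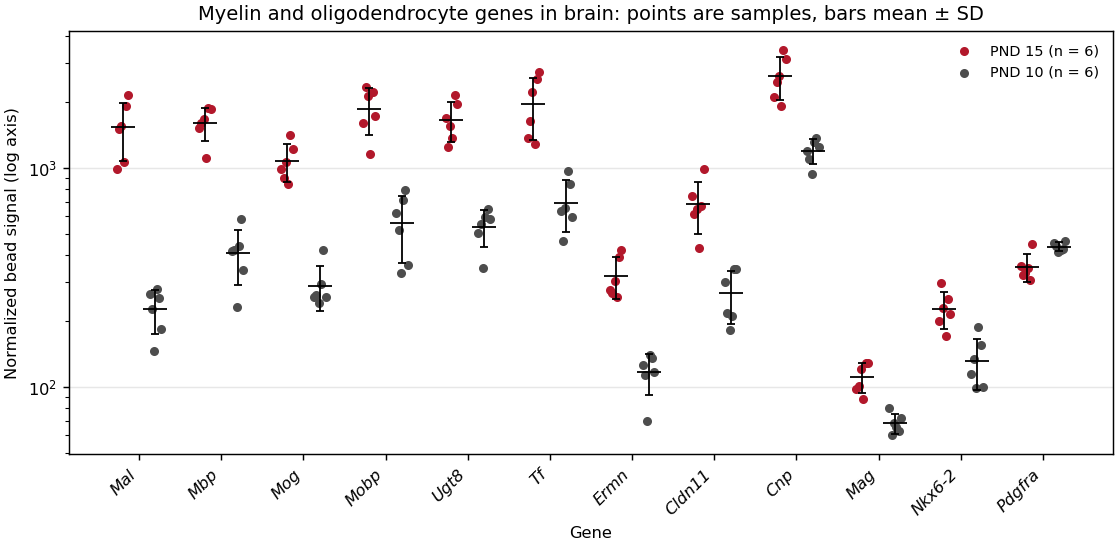
Normalized bead signal (log axis) of 12 myelin and oligodendrocyte genes in the 6 brain samples of PND 15 (red) and the 6 of PND 10 (grey); each point is a sample and bars give mean ± SD. The ranges stay apart for all genes shown but Nkx6-2 and Pdgfra, and Pdgfra is the one that is lower at PND 15.

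The list of myelin lipid synthesis moved the same way in part. It holds lipid-making enzymes and other genes of oligodendrocytes, such as Car2, Enpp6 and Pllp. Of 22 measured, 10 were called higher (45.5%, against 3.94% of named genes) and none lower (median log2 change 0.25), all 10 also against PND 7. None was called in colon, where 8 of the 10 were detected throughout an age. Ugt8, which makes galactocerebroside, the typical lipid of myelin, had 1242, 1619 and 2143 at PND 15, against 349.9, 569 and 648 at PND 10. The ranges were far apart, and Ugt8 was 3.08-fold higher (log2 change 1.62 ± 0.14 SE, adjusted p = 2.17e-13). Enpp6, a choline phosphodiesterase of newly made oligodendrocytes, averaged 135 ± 11.7 at PND 15 and 83.4 ± 7.95 at PND 10, and Cers2, which makes ceramides with very long chains, 701 ± 54.2 at PND 15 and 435 ± 12.4 at PND 10. Their log2 changes were 0.70 and 0.68 (adjusted p = 7.55e-10 and 1.27e-11). Car2, the carbonic anhydrase of oligodendrocytes, averaged 943 ± 91.1 at PND 15 and 592 ± 45.6 at PND 10 (log2 change 0.67 ± 0.08 SE, adjusted p = 1.37e-08). Enpp2, autotaxin, averaged 2716 ± 542 at PND 15 and 1649.8 ± 323 at PND 10, with overlapping samples (log2 change 0.72 ± 0.17 SE, adjusted p = 0.0014). Scd2, Gltp, Fads1, Aspa and Pllp, which is on the myelin protein list too, were the rest.

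The enzymes of cholesterol synthesis were not among the rises. Of 17 measured, none was called higher and 5 were called lower, with a median log2 change of -0.21, against 5.07% of named genes called lower. All 17 were detected in all 6 samples of at least 1 age. Among the 9626 such probes, tested alone, 991 were called lower, and 6 of the 17. Acat2, the cytosolic thiolase at the head of the pathway, had 1756, 1789 and 2198 at PND 15, against 2607, 2893 and 3309 at PND 10 (log2 change -0.62 ± 0.08 SE, adjusted p = 2.22e-08), and its ages did not overlap. Mvd, which makes isopentenyl diphosphate, averaged 413 ± 48.6 at PND 15 and 622 ± 76.6 at PND 10 (log2 change -0.59 ± 0.08 SE, adjusted p = 2.52e-07), with overlap. Tm7sf2, a sterol reductase, averaged 219.7 ± 39.5 at PND 15 and 318 ± 29.5 at PND 10 (log2 change -0.55 ± 0.10 SE, adjusted p = 9.29e-05). Fdft1, squalene synthase, and Nsdhl were lower by less (log2 changes -0.33 and -0.27). Acat2 and Tm7sf2 were also called lower in colon (log2 changes -0.47 and -0.57), and the difference between the tissues was called for none of the 5. All but Nsdhl were also lower than at PND 7.

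Few genes of earlier oligodendrocyte stages passed the test. Of 10 measured transcription factors of the lineage, Nkx6-2, a homeodomain factor of maturing oligodendrocytes, was the only one called. It averaged 227 ± 44.5 at PND 15 and 131 ± 34.7 at PND 10 (SD, n = 6 each; log2 change 0.81 ± 0.13 SE, adjusted p = 5.21e-06), with overlapping samples. Sox10, which drives myelin genes, averaged 341 ± 28.7 at PND 15 and 257 ± 22.8 at PND 10, and Olig1 3152 ± 563 at PND 15 and 2536 ± 136 at PND 10; neither passed (adjusted p = 0.0195 and 0.0196). Of 12 precursor genes, 2 were lower (16.7%, against 5.07% of named genes) and none higher (median -0.10). Pdgfra, the receptor that marks precursors, had 308, 339 and 449.7 at PND 15, against 411, 434 and 464 at PND 10. Its highest PND 15 sample lay within the PND 10 range, it was not called against PND 7, and the change was small (log2 change -0.32 ± 0.07 SE, adjusted p = 4.28e-04, exact permutation p = 0.0108). Vcan, a proteoglycan of precursors and of the juvenile matrix, averaged 373 ± 47.4 at PND 15 and 543 ± 35.0 at PND 10 (log2 change -0.55 ± 0.09 SE, adjusted p = 7.82e-06) and was also called lower in colon (-0.71). In tissue of many cell types, fewer cells of a type and less RNA per cell cannot be told apart, and this holds for every gene described here.

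**Figure D3:**
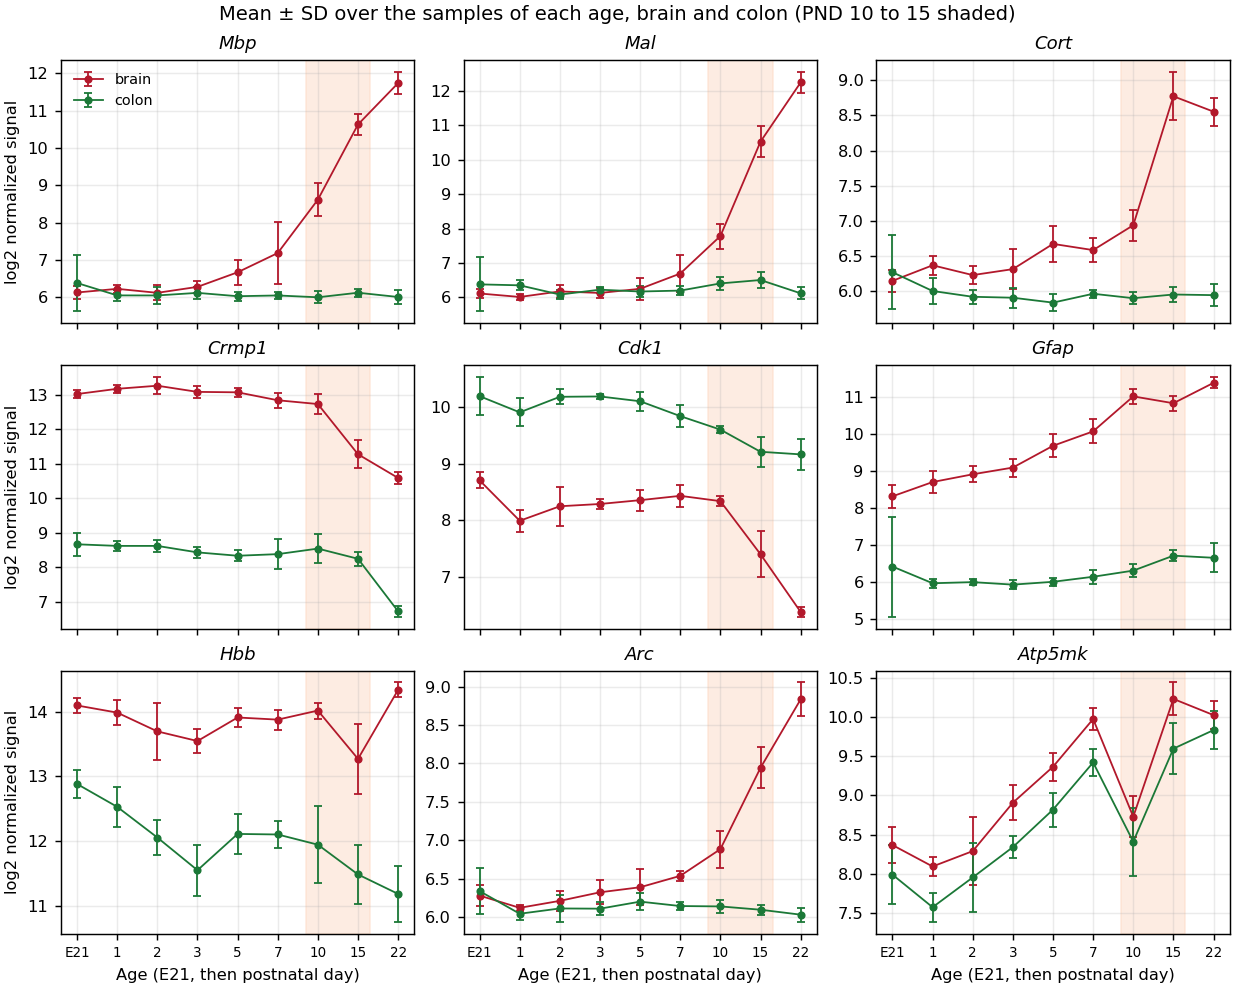
Mean ± SD of the log2 normalized signal over all 9 ages in brain (red, 6 samples an age) and colon (green, 6 samples an age, 5 at E21) for 9 genes, with PND 10 to 15 shaded. Mbp, Mal and Arc climb steadily into PND 22 in brain alone, Cort climbs mainly within the shaded step, Crmp1 and Cdk1 drop in it, Gfap pauses, Hbb has a minimum at PND 15, and Atp5mk dips at PND 10 in both tissues.

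The genes of synapses had smaller changes than those of myelin. Of 47 measured genes of synaptic vesicles and exocytosis, 9 were called higher (19.1%, against 3.94% of named genes) and none lower. The median log2 change was 0.09, and 4 were called higher when each array was scaled to its 75th percentile. Of the 9, 7 were also higher than at PND 7. None was called in colon, where 6 of the 9 were detected throughout an age, and the difference between the tissues was called for none. Dnm1, the dynamin that pinches vesicles off the membrane, had 4709, 5867 and 9052 at PND 15, against 3319, 3819 and 4332 at PND 10. It was 1.66-fold higher with separate ranges, though wide at PND 15 (log2 change 0.73 ± 0.13 SE, adjusted p = 3.84e-05). Syp, synaptophysin, the abundant protein of the vesicle membrane, had 5327, 6178 and 7352 at PND 15, against 3887, 4139 and 4672 at PND 10 and rose without overlap (log2 change 0.59 ± 0.10 SE, adjusted p = 7.98e-06). Snap25, a SNARE protein of the presynaptic membrane, averaged 5739 ± 1490.3 at PND 15 and 3743 ± 633 at PND 10 (log2 change 0.59 ± 0.14 SE, adjusted p = 0.00116), and its samples overlapped. Without PND 15 sample 6 its adjusted p was 0.0103. The log2 change in colon, which has neurons of its own, was 0.53 for Syp and 0.42 for Snap25, neither called. Nsf, the ATPase that takes SNARE complexes apart, averaged 1346 ± 133 at PND 15 and 940.5 ± 89.1 at PND 10 (log2 change 0.52 ± 0.11 SE, adjusted p = 2.98e-04). Slc17a7, the vesicular glutamate transporter of cortical neurons, averaged 237 ± 41.9 at PND 15 and 153 ± 22.9 at PND 10 (log2 change 0.62 ± 0.11 SE, adjusted p = 2.56e-05). Vamp2, Syt1, Stx1a and Unc13c made up the rest.

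On the postsynaptic side, 8 of 32 measured genes were called higher (25%) and 1 lower (3.12%), with a median of 0.16, and all 9 held against PND 7. Nrgn, neurogranin, a calmodulin-binding protein of dendritic spines, was among the brightest, with 10453, 13218 and 17231 at PND 15, against 7056, 8969.6 and 9741 at PND 10. It was 1.52-fold higher without overlap (log2 change 0.60 ± 0.16 SE, adjusted p = 0.0066), and lost the call when any of 8 samples was left out, at most at an adjusted p of 0.0283 without PND 15 sample 2. Itpka, an actin-bundling kinase of spines, averaged 491 ± 82.6 at PND 15 and 296 ± 27.8 at PND 10 (log2 change 0.72 ± 0.10 SE, adjusted p = 4.10e-07), and Rasgrp1, a Ras activator, 176 ± 25.2 at PND 15 and 106 ± 16.6 at PND 10 (log2 change 0.74 ± 0.10 SE, adjusted p = 1.12e-07). Both differed from colon in their change (adjusted p = 4.21e-05 and 2.61e-05). Arc, also on this list, is given with the immediate early genes, and Ddn, Dlg1, Ppp1r9b and Baiap2 rose by 0.35 to 0.53. Homer2, a scaffold of metabotropic receptors, was lower, though not called without PND 15 sample 5 or 6 or PND 10 sample 2 or 6, at 149.7 ± 28.4 at PND 15 and 209 ± 28.1 at PND 10 (log2 change -0.49 ± 0.12 SE, adjusted p = 0.00286). Camk2a, the kinase of the mature density, is a dim probe here, with 89.0 ± 4.68 at PND 15 and 76.8 ± 4.18 at PND 10, and missed the threshold (adjusted p = 0.0436), although its samples did not overlap.

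Few receptor subunits passed the test. Of 24 measured glutamate receptor genes, 5 were called higher (20.8%, against 3.94% of named genes) and none lower (median 0.04). All but Grm8 held against PND 7. None was called in colon, where 1 of the 5 was detected throughout an age. With 75th percentile scaling 3 were called. Without 1 sample this count fell to 2 (PND 15 sample 6 or PND 10 sample 4) or 3 (PND 15 sample 5, or PND 10 sample 1 or 3). Grin2c, the NMDA subunit best known from cerebellar granule cells, had 170.2, 190.5 and 214 at PND 15, against 78.3, 109 and 130.3 at PND 10. It was 1.81-fold higher without overlap (log2 change 0.86 ± 0.09 SE, adjusted p = 1.33e-10). Grin2a, the NMDA subunit of mature forebrain synapses, had 156, 216 and 249.9 at PND 15, against 94.0, 128 and 172 at PND 10. Its ranges overlapped, and it was 1.58-fold higher (log2 change 0.66 ± 0.13 SE, adjusted p = 1.59e-04, exact permutation p = 0.00649). Grin2b, the subunit that predominates before, averaged 168 ± 43.4 at PND 15 and 203 ± 37.0 at PND 10 and did not pass (log2 change -0.29 ± 0.15 SE, adjusted p = 0.24). Grin1, the subunit common to all NMDA receptors, averaged 1529.6 ± 206 at PND 15 and 1209 ± 42.4 at PND 10 (log2 change 0.33 ± 0.09 SE, adjusted p = 0.00653; 0.0346 without PND 15 sample 6), and Cacng3, an AMPA receptor partner, 623 ± 90.0 at PND 15 and 461 ± 47.0 at PND 10 (log2 change 0.43 ± 0.11 SE, adjusted p = 0.00277). Grm8 was detected in 5 of the 6 PND 15 samples and 1 of the 6 at PND 10. Of 19 genes of GABA and glycine receptors and chloride transport, 2 were higher and 1 lower, all 3 also against PND 7. None was called in colon, where none of the 3 was detected throughout an age. Gabrd, the delta subunit of extrasynaptic GABA receptors, had 313, 333 and 465 at PND 15, against 149, 168 and 205 at PND 10 and was 2.11-fold higher (log2 change 1.07 ± 0.10 SE, adjusted p = 4.37e-12). Gabra6, the subunit of cerebellar granule cells, averaged 136 ± 38.8 at PND 15 and 74.0 ± 22.6 at PND 10 and was detected in 5 of the 6 PND 15 samples and 3 of the 6 at PND 10. Glra2, the fetal glycine receptor subunit, was lower, at 849 ± 185 at PND 15 and 1092 ± 153 at PND 10 (log2 change -0.38 ± 0.11 SE, adjusted p = 0.00918, exact permutation p = 0.0411), and did not pass without PND 15 sample 3 (adjusted p = 0.0483). Slc12a5, the chloride exporter KCC2, averaged 2046 ± 515 at PND 15 and 1476 ± 325 at PND 10 and did not pass (adjusted p = 0.0446).

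Interneuron genes held several of the larger rises. Of 19 measured genes of GABA synthesis and interneurons, 7 were called higher and 1 lower (median 0.21), all 8 also against PND 7. These shares were 36.8% and 5.26%, against 3.94% and 5.07% of named genes. Cort, cortistatin, a neuropeptide of cortical interneurons, had 290.2, 489 and 536 (lowest, median and highest) at PND 15, against 102, 118 and 157 at PND 10. The gene lies at chr5:164843682-164845796 of GRCr8. It was 3.58-fold higher (log2 change 1.84 ± 0.12 SE, adjusted p = 1.80e-17), the fourth largest rise among named genes, and its step exceeded that between PND 5 and PND 10 by 1.57 on the log2 scale (adjusted p = 1.57e-06). Pvalb, parvalbumin, the calcium buffer of fast-spiking cells, had 143, 209 and 292 at PND 15, against 72.0, 87.2 and 128 at PND 10. It was 2.26-fold higher without overlap (log2 change 1.18 ± 0.12 SE, adjusted p = 1.73e-10). Kcnc2 and Kcnc1, the Kv3 potassium channels that let these cells fire fast, averaged 1407 ± 439.9 at PND 15 and 689 ± 89.5 at PND 10 for Kcnc2 and 396 ± 55.6 at PND 15 and 253 ± 32.3 at PND 10 for Kcnc1 (SD, n = 6 each; log2 changes 0.99 and 0.64, adjusted p = 1.16e-10 and 3.88e-08). Kcnc2 has 3 probes, which rose by 0.34, 0.56 and 0.99. Cck, the peptide cholecystokinin, averaged 3965 ± 914 at PND 15 and 1936 ± 160.4 at PND 10 (log2 change 1.01 ± 0.12 SE, adjusted p = 4.59e-09), and Vip 385 ± 85.9 at PND 15 and 238 ± 27.2 at PND 10 (log2 change 0.67 ± 0.12 SE, adjusted p = 4.07e-05). Gad1, which makes GABA, rose by 0.28. Sst, somatostatin, averaged 1015 ± 123 at PND 15 and 856 ± 75.5 at PND 10 and did not pass (adjusted p = 0.159). Dlx1, a factor of young interneurons, was the 1 gene that fell (log2 change -0.44 ± 0.10 SE, adjusted p = 0.00141).

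Of 30 genes of neuropeptides and secretory granules 7 were higher (23.3%, against 3.94% of named genes) and 1 lower (3.33%, against 5.07%). Besides Cort, Cck and Vip these were Scg5, Scg2, Pcsk2 and Penk, with Nucb2 lower. Scg2 was also called higher in colon, and neither it nor Nucb2 held against PND 7. Without PND 15 sample 1 or 5, or PND 10 sample 1, 3 or 4, none was called lower. Of 70 voltage-gated and potassium channel genes 12 were higher (17.1%) and none lower, and 9 of the 12 held against PND 7. Scn4b, a sodium channel subunit of fast-firing cells, averaged 162 ± 50.8 at PND 15 and 88.2 ± 12.7 at PND 10 (log2 change 0.83 ± 0.12 SE, adjusted p = 6.62e-07), and Kcnk1, a leak channel, 1800.3 ± 389 at PND 15 and 1087 ± 237 at PND 10 (log2 change 0.73 ± 0.16 SE, adjusted p = 8.16e-04). Of 15 genes of nodes, paranodes and neurofilaments 3 were higher: Nefh, the heavy neurofilament of myelinated axons, averaged 127 ± 11.7 at PND 15 and 84.0 ± 7.74 at PND 10 (log2 change 0.60 ± 0.07 SE, adjusted p = 1.61e-08), with Sptbn4 and Epb41l3 beside it. All 3 held against PND 7, and Epb41l3 was also called in colon. Of 17 genes of the synaptic matrix and perineuronal net, Lgi3 was higher (log2 change 0.86 ± 0.10 SE, adjusted p = 1.80e-09) and Vcan lower. That is 5.88% each way, near the shares of named genes, 3.94% higher and 5.07% lower. Of 28 transporters of transmitters and ions 5 were higher and none lower, among them the calcium pumps Atp2a2 (log2 change 0.64 ± 0.10 SE, adjusted p = 4.70e-06), Atp2b3 and Atp2b2. All 5 held against PND 7, and 3 were called with 75th percentile scaling. None was called in colon, where 2 of the 5 were detected throughout an age.

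**Figure D4:**
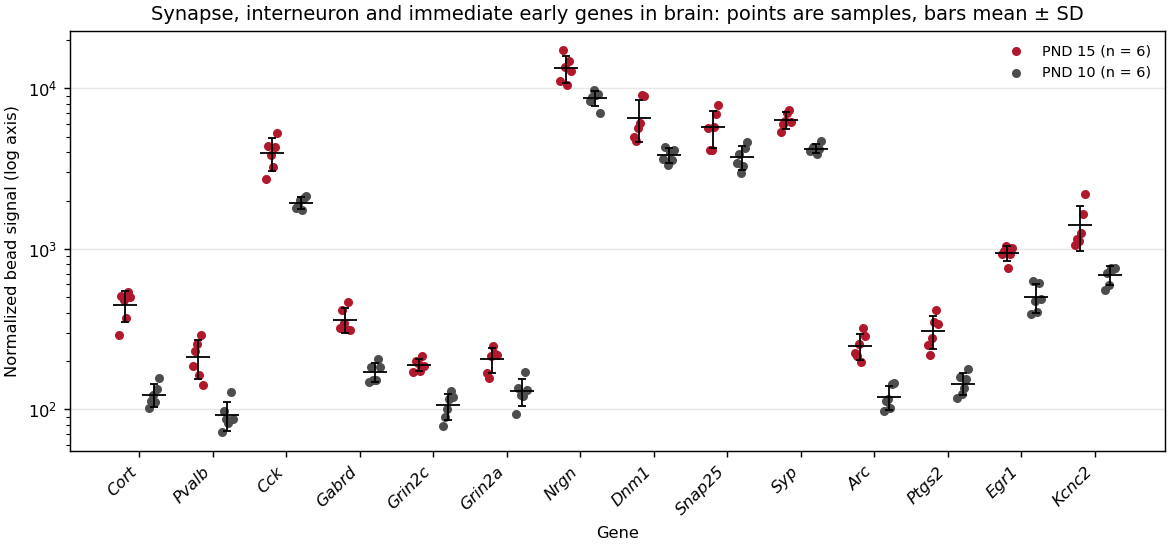
Normalized bead signal (log axis) of 14 synapse, interneuron and immediate early genes in the 6 brain samples of PND 15 (red) and the 6 of PND 10 (grey); each point is a sample and bars give mean ± SD. All 14 means are higher at PND 15, and the ranges stay apart for every gene shown but Grin2a and Snap25.

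Immediate early genes, which neurons switch on within minutes of activity, were higher in part. Of 28 measured, 11 were called higher (39.3%, against 3.94% of named genes) and none lower, with a median of 0.20. All 11 were also higher than at PND 7. None was called in colon, where 8 of the 11 were detected throughout an age. The brain change exceeded the colon change for 3. Arc, a regulator of AMPA receptors whose RNA travels to active synapses, had 198, 239.9 and 320.4 at PND 15, against 98.4, 114 and 145 at PND 10. It was 2.08-fold higher without overlap (log2 change 1.06 ± 0.10 SE, adjusted p = 6.56e-12). Ptgs2, the inducible cyclooxygenase, had 217, 309 and 414 at PND 15, against 118, 145 and 178 at PND 10 and was 2.10-fold higher (log2 change 1.07 ± 0.12 SE, adjusted p = 7.08e-10). Egr1, a zinc finger factor, had 759, 954 and 1035 at PND 15, against 394, 482 and 632 at PND 10 (log2 change 0.93 ± 0.11 SE, adjusted p = 2.40e-09). The lowest PND 15 sample of Egr1 stood below the other 5 and still above every PND 10 sample. Dusp1, a phosphatase of MAP kinases, Junb and Egr4 rose by 0.82, 0.78 and 0.78. Fos averaged 144 ± 16.9 at PND 15 and 104 ± 26.8 at PND 10 (log2 change 0.49 ± 0.11 SE, adjusted p = 0.00142), and Bdnf, the neurotrophin, 138 ± 15.0 at PND 15 and 113 ± 6.73 at PND 10 (log2 change 0.28 ± 0.08 SE, adjusted p = 0.00755; 0.0398 without PND 15 sample 5). Egr2, Per1 and Ier5 completed the list.

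The stretches before the start sites of the immediate early genes are shown because serum response and cyclic AMP elements there are the known entry points of activity signals. Promoters came from RefSeq on the rat build GRCr8 and covered 9 of the 11 genes, Arc and Fos not among them. The capitals mark 2 spellings of the serum response element, each opening with CC and closing with GG, and the cyclic AMP response element TGACGTCA, searched on both strands in the 200 bases before each start, with no overlap between matches. Egr1 (chr18:26736878-26737077, plus strand) held a serum response element of each spelling, 105 and 83 bases before its start, and 0.0179% of all 33469 promoters hold the letters of the one farther out and 0.0269% those of the nearer one. Dusp1 (chr10:17184653-17184852, plus strand) held TGACGTCA 124 bases before its start, as 1.46% of all promoters do. Over the 14 promoters of the 9 genes, 1 held the farther spelling, 2 the nearer one and 1 TGACGTCA. Those of Bdnf, Egr4, Junb, Per1 and Ptgs2 held none of these letters. Other spellings of the elements were not searched, so these counts and shares cover the exact letters only.
Egr1: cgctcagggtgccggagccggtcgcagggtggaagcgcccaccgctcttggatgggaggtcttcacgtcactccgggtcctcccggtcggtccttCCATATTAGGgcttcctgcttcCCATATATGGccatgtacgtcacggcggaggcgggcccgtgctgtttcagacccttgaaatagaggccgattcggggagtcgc
Dusp1: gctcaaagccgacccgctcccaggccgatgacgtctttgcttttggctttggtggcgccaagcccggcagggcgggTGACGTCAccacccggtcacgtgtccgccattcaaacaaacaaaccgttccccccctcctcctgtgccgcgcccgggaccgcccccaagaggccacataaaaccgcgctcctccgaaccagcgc

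The largest single falls were in genes of young neurons and growing axons. Of 42 measured, 18 were called lower (42.9%, against 5.07% of named genes) and 2 higher (4.76%, against 3.94%), with a median of -0.32. All 18 were also lower than at PND 7. The 2 called higher, Efnb2 and Hmgb1, were each detected in 2 of the 6 PND 15 samples and none at PND 10, and neither held against PND 7 or was called without PND 15 sample 4. In colon, where 14 of the 18 were detected throughout an age, 1 of them, Igfbpl1, was called lower. The difference between the tissues was called for 6. Crmp1, a collapsin response mediator of growth cones, had 1675, 2557 and 3372 (lowest, median and highest) at PND 15, against 5087, 7661 and 7969 at PND 10. It was the largest fall among named genes, 2.74-fold lower (log2 change -1.45 ± 0.12 SE, adjusted p = 1.90e-13), and its step minus the step between PND 5 and PND 10 was -1.12 on the log2 scale (adjusted p = 8.85e-04). The gene lies at chr14:77734675-77780916 of GRCr8. Dpysl3, of the same family, had 143, 212 and 335 at PND 15, against 404, 527 and 719.8 at PND 10 (log2 change -1.35 ± 0.20 SE, adjusted p = 8.54e-07). Tubb2b, a tubulin of migrating neurons, had 754, 1463 and 1816 at PND 15, against 2378, 3593 and 5153 at PND 10 and was 2.71-fold lower without overlap (log2 change -1.44 ± 0.17 SE, adjusted p = 7.01e-09). Tubb3, the neuronal tubulin, averaged 1259.9 ± 123 at PND 15 and 2214 ± 313 at PND 10 (SD, n = 6 each; log2 change -0.81 ± 0.08 SE, adjusted p = 8.00e-11). Igfbpl1, a marker of newborn neurons, averaged 481 ± 169 at PND 15 and 1038 ± 189 at PND 10 (log2 change -1.20 ± 0.18 SE, adjusted p = 6.82e-07), with 1 PND 15 sample, at 172, far below the other 5. Gap43, the growth cone protein, stayed among the brightest probes, at 12708 ± 963 at PND 15 and 16997 ± 982 at PND 10 (log2 change -0.42 ± 0.06 SE, adjusted p = 5.02e-08). Fabp7, of radial glia, averaged 9489.5 ± 1363 at PND 15 and 15843 ± 1857 at PND 10 (log2 change -0.74 ± 0.08 SE, adjusted p = 7.55e-10), and Map1b, of growing axons, 1420 ± 125 at PND 15 and 2245 ± 93.2 at PND 10 (log2 change -0.66 ± 0.09 SE, adjusted p = 2.52e-07).

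Cell cycle genes were lower as well. Of 42 measured cell cycle genes 24 were called lower (57.1%, against 5.07% of named genes) and none higher (median -0.41). Of the 24, 21 were lower also against PND 7. In colon 8 of the 24 were called lower as well, the median of the list there was -0.29, and the difference between the tissues was called for 1, Ube2c. Cdk1, the kinase that starts mitosis, had 108, 188 and 216 at PND 15, against 307, 315 and 350.5 at PND 10 and was 1.91-fold lower without overlap (log2 change -0.94 ± 0.12 SE, adjusted p = 2.86e-08). Rrm2, which makes DNA precursors, had 89.3, 131 and 155 at PND 15, against 219, 242 and 287 at PND 10 (log2 change -0.94 ± 0.11 SE, adjusted p = 7.83e-10). Mcm6, of the replicative helicase, averaged 241 ± 32.4 at PND 15 and 437 ± 42.9 at PND 10 (log2 change -0.86 ± 0.10 SE, adjusted p = 6.47e-10), and Ccnb2, a mitotic cyclin, 216 ± 44.8 at PND 15 and 397 ± 54.7 at PND 10 (log2 change -0.89 ± 0.13 SE, adjusted p = 5.30e-07). Pcna, the polymerase clamp, remained the brightest of those called, at 1455 ± 184 at PND 15 and 1983 ± 145 at PND 10 (log2 change -0.45 ± 0.11 SE, adjusted p = 0.00144). Outside the list, Myc averaged 144 ± 10.1 at PND 15 and 286 ± 41.4 at PND 10 (log2 change -0.98 ± 0.07 SE, adjusted p = 9.15e-16), Hes6, a factor of newborn neurons, 399 ± 113 at PND 15 and 889 ± 150.4 at PND 10 (log2 change -1.20 ± 0.13 SE, adjusted p = 7.64e-10), and Pafah1b3, an acetylhydrolase subunit of the developing brain, 257 ± 59.2 at PND 15 and 608 ± 133 at PND 10 (log2 change -1.24 ± 0.11 SE, adjusted p = 2.50e-13).

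The promoters of cell cycle genes are shown because a CCAAT box and a CHR element (TTTGAA) upstream of the start are the known signature of genes of late cell cycle. Of the 24 genes called lower, 18 have promoters in the RefSeq table, 19 in number. In the 200 bases before the start, searched on both strands, 12 of the 19 (63.2%) held CCAAT and 8 (42.1%) held TTTGAA, and 5 (26.3%) held both. Of all 33469 promoters 29.2%, 12.6% and 3.9% did. No share was computed for the cell cycle genes not called. These shares therefore describe genes of a cell cycle list and cannot be tied to the change between the ages. The letters of the motifs do not overlap in the stretches below, where capitals mark them on either strand. They are the 4 of the 6 most changed cell cycle genes that the table covers: Cdk1 (chr20:19265093-19265292, plus strand), Ccnb2 (chr8:79981659-79981858, minus strand), Kif22 (chr1:191080879-191081078, minus strand) and Mcm6 (chr13:42404353-42404552, minus strand), all on GRCr8. Mcm6 holds CCAAT and no TTTGAA in this window, and a match is a description of the letters only.
Cdk1: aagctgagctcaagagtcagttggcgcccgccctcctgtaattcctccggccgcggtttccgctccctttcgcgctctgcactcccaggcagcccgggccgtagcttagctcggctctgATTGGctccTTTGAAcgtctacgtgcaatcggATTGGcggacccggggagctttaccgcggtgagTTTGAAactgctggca
Ccnb2: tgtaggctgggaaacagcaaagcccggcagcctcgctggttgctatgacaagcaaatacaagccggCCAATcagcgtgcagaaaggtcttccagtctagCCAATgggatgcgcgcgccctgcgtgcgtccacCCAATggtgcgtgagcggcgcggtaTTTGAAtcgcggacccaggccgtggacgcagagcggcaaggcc
Kif22: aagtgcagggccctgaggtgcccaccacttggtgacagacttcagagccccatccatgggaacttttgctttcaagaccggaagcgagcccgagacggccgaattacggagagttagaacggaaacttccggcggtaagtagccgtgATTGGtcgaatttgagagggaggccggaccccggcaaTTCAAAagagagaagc
Mcm6: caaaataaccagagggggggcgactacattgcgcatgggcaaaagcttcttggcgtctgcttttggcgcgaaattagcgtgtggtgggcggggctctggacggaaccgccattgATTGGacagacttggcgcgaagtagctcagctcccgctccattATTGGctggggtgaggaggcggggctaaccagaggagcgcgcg

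Astrocyte genes rose in part and one of their defining genes did not. Of 26 measured, 8 were higher (30.8%, against 3.94% of named genes) and none lower (median 0.29), all 8 also against PND 7. None was called in colon, where 7 of the 8 were detected throughout an age. With 75th percentile scaling 5 were called. Gjb6 and Gja1, the gap junction proteins that join astrocytes, averaged 1002 ± 240.3 at PND 15 and 497 ± 59.5 at PND 10 for Gjb6 and 7006 ± 1323 at PND 15 and 4542 ± 392 at PND 10 for Gja1 (SD, n = 6 each; log2 changes 0.99 and 0.61, adjusted p = 1.10e-07 and 1.39e-06). Slc1a2, the main glutamate transporter, averaged 234 ± 31.1 at PND 15 and 135 ± 12.8 at PND 10 (log2 change 0.78 ± 0.10 SE, adjusted p = 9.15e-09). Clu, clusterin, rose by 0.89 in brain, and its change in colon, which was not called, was 1.03. Gfap, the astrocyte filament, had 1568, 1855 and 2324 at PND 15, against 1669, 2131 and 2481 at PND 10, and the ranges overlapped almost wholly (log2 change -0.19 ± 0.14 SE, adjusted p = 0.503). It had risen between PND 7 and PND 10, and its step minus that between PND 5 and PND 10 was -1.52 (adjusted p = 3.92e-05). Aqp4, the water channel of astrocyte endfeet, averaged 349 ± 39.8 at PND 15 and 329.5 ± 35.3 at PND 10 and did not pass (adjusted p = 0.729). Of 34 microglia genes 4 were higher (11.8%, against 3.94% of named genes) and none lower. Ctss, a lysosomal protease, averaged 775 ± 246 at PND 15 and 431 ± 75.9 at PND 10 (log2 change 0.81 ± 0.13 SE, adjusted p = 5.55e-06), with Ctsd, C1qa and Cd53 beside it. All 4 held against PND 7, and Cd53 was also called in colon.

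A few globin genes were lower, and few genes of vessels were called. The summed signal of the 13 red cell genes was 19378 to 40990 at PND 15 and 38605 to 46789 at PND 10, and 3 of the 13 were lower, also against PND 7 and not called in colon. Hbb-b1, a beta globin, had 2136, 2401 and 4726 at PND 15, against 5068, 6043 and 8287 at PND 10 (log2 change -1.21 ± 0.19 SE, adjusted p = 1.72e-06), and Hbb averaged 10448 ± 3814 at PND 15 and 16616 ± 1435 at PND 10 with overlap (log2 change -0.75 ± 0.14 SE, adjusted p = 1.06e-04). Hba-a1 averaged 13599 ± 2840.1 at PND 15 and 17669 ± 645 at PND 10, near the top of the range of the arrays, and Hba-a3, an alpha globin outside the list, 237 ± 66.3 at PND 15 and 589 ± 149.8 at PND 10 (log2 change -1.32 ± 0.23 SE, adjusted p = 1.55e-05). Globin genes are near-identical copies, so a probe may read several of them. Their part in the other results was not tested. Of 21 endothelial genes 2 were lower (9.52%, against 5.07% of named genes), Slc38a5 and Slc7a5, both also against PND 7 and not in colon. Slc38a5, an amino acid transporter of young brain vessels, averaged 299.6 ± 31.0 at PND 15 and 565 ± 64.2 at PND 10 (log2 change -0.91 ± 0.10 SE, adjusted p = 5.04e-10). Mural cell genes had none called of 11, and of 20 meningeal and fibroblast genes 2 were lower, Igfbp2 and Slc22a6, and none when PND 15 sample 4 or 5 or PND 10 sample 1, 3 or 4 was left out. Of 21 genes of choroid plexus and ependyma 1 was higher, Rarres2 (adjusted p = 0.0382 without PND 15 sample 5), a share of 4.76% against 3.94% of named genes. Ttr, the transport protein that choroid plexus makes, averaged 2154 ± 580.1 at PND 15 and 2618 ± 730.3 at PND 10 and did not pass (adjusted p = 0.327). Their summed signal was 3311 to 5162 at PND 15 and 3786 to 5865 at PND 10.

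Since the region of the piece is not given, genes of brain regions were counted as well. Of 17 striatal genes 5 were higher (29.4%, against 3.94% of named genes) and 1 lower (5.88%, against 5.07%). The lower one was Rarb, whose other probe changed by 0.10. All but Drd1 held against PND 7, and Rarb was also called lower in colon. The median was 0.34, and the summed signal was 8279.8 to 11153 at PND 15 and 8020.3 to 8599 at PND 10. Ppp1r1b, the dopamine-regulated phosphatase inhibitor DARPP-32, averaged 1527 ± 394 at PND 15 and 855 ± 172 at PND 10, with overlap (log2 change 0.81 ± 0.14 SE, adjusted p = 1.46e-05), though its other probe changed by 0.25 and was not called, and Rgs4 2189 ± 365 at PND 15 and 1395 ± 128 at PND 10 (log2 change 0.64 ± 0.10 SE, adjusted p = 1.56e-06). Of 14 genes of cortex and hippocampus 3 were higher, of 19 of cerebellum and hindbrain 1, and of 24 of thalamus, midbrain and hypothalamus 1. These are 21.4%, 5.26% and 4.17%, the cerebellar and thalamic shares being near the 3.94% of named genes called higher. The summed cerebellar and hindbrain signal ranged from 1928 to 5919 at PND 15 and from 3765 to 6447 at PND 10, so the pieces differed in these genes within an age. Its part in the other results was not tested.

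Some energy genes were called in brain alone and others in colon too. Of 41 genes of the respiratory chain and ATP synthase 7 were higher (17.1%, against 3.94% of named genes) and none lower. Of the 7, 6 held against PND 7. With 75th percentile scaling 3 were called higher, and the median was 0.04 in place of 0.14. Ckb, brain creatine kinase, averaged 3445 ± 549.9 at PND 15 and 2302 ± 87.4 at PND 10 (log2 change 0.57 ± 0.08 SE, adjusted p = 3.90e-07), with a log2 change of -0.02 in colon. Cox6c averaged 167 ± 25.6 at PND 15 and 85.4 ± 8.03 at PND 10 (log2 change 0.96 ± 0.12 SE, adjusted p = 1.09e-08), did not hold against PND 7 and rose in colon by 0.70. Of 20 genes of glycolysis and glucose transport 6 were higher (30%, against 3.94% of named genes) and none lower. Of the 6, 4 held against PND 7, and 3 were also called in colon. Eno2, the neuronal enolase, averaged 3892 ± 827 at PND 15 and 2439 ± 341 at PND 10 (log2 change 0.66 ± 0.11 SE, adjusted p = 1.59e-05), while Gapdh averaged 4344 ± 442 at PND 15 and 2579.9 ± 339 at PND 10 and changed by 0.76 in brain and 0.74 in colon. Eno1 and Mpc1 were likewise called higher in both tissues. Of 17 genes of ketone body, lactate and monocarboxylate use 3 were higher, led by Pdk2 (log2 change 0.60 ± 0.10 SE, adjusted p = 6.69e-06), and with 75th percentile scaling 1. All 3 held against PND 7, and none was called in colon. Of 15 widely used control genes 2 were higher (Gapdh, Pgk1) and 3 lower (Rps18, Rpl13a, Rplp0). Their shares, 13.3% and 20%, exceed the 3.94% and 5.07% of named genes called higher and lower.

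The hormone lists share genes with those above. Of 16 genes known to respond to thyroid hormone 6 were higher (37.5%, against 3.94% of named genes) and 1 lower (6.25%, against 5.07%). All 7 held also against PND 7, and Thrsp was called in colon too. Mbp, Nrgn, Nefh and Thrsp are among the 6, Cirbp was the lower one, and Klf9, a direct target, averaged 2588 ± 319 at PND 15 and 1683 ± 318 at PND 10 (log2 change 0.63 ± 0.14 SE, adjusted p = 0.00126), with Hr at 151 ± 12.5 at PND 15 and 105 ± 8.70 at PND 10 (log2 change 0.52 ± 0.08 SE, adjusted p = 3.98e-07). Of 18 genes that respond to glucocorticoids 4 were higher (22.2%, against 3.94% of named genes), Gjb6, Dusp1, Errfi1 and Per1. All 4 held also against PND 7, and none was called in colon. Of 33 growth factors and receptors 2 were higher, Ptn and Bdnf, and 2 lower, Igfbp2 and Ngfr (6.06% each way, against 3.94% of named genes higher and 5.07% lower). Without PND 15 sample 6 these counts were 1 and 0, Ptn and Ngfr did not hold against PND 7, and Ptn was also called in colon. The genes of sialic acid, the sugar that the study followed, moved little. Of 22 genes of sialic acid and UDP-GlcNAc metabolism 1 was lower, Nagk, a share of 4.55%, near the 5.07% of named genes called lower. Nagk averaged 122 ± 4.68 at PND 15 and 152 ± 11.7 at PND 10 (log2 change -0.32 ± 0.06 SE, adjusted p = 1.95e-04). It was also lower against PND 7 and not called in colon. Gne, which starts the synthesis of sialic acid, averaged 145 ± 14.3 at PND 15 and 133 ± 5.39 at PND 10, with a log2 change of 0.12 ± 0.08 SE (adjusted p = 0.465). Of 17 sialyltransferases and enzymes of ganglioside synthesis none was called at an adjusted p under 0.01. Only 9 of the 17 were detected in all 6 samples of at least 1 age. St3gal5, St6galnac4, St6galnac5, St6galnac6, St8sia3 and St8sia5 were not among those measured. St8sia2, the polysialyltransferase of the young brain, was detected in 1 of the 12 samples.

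**Figure D5:**
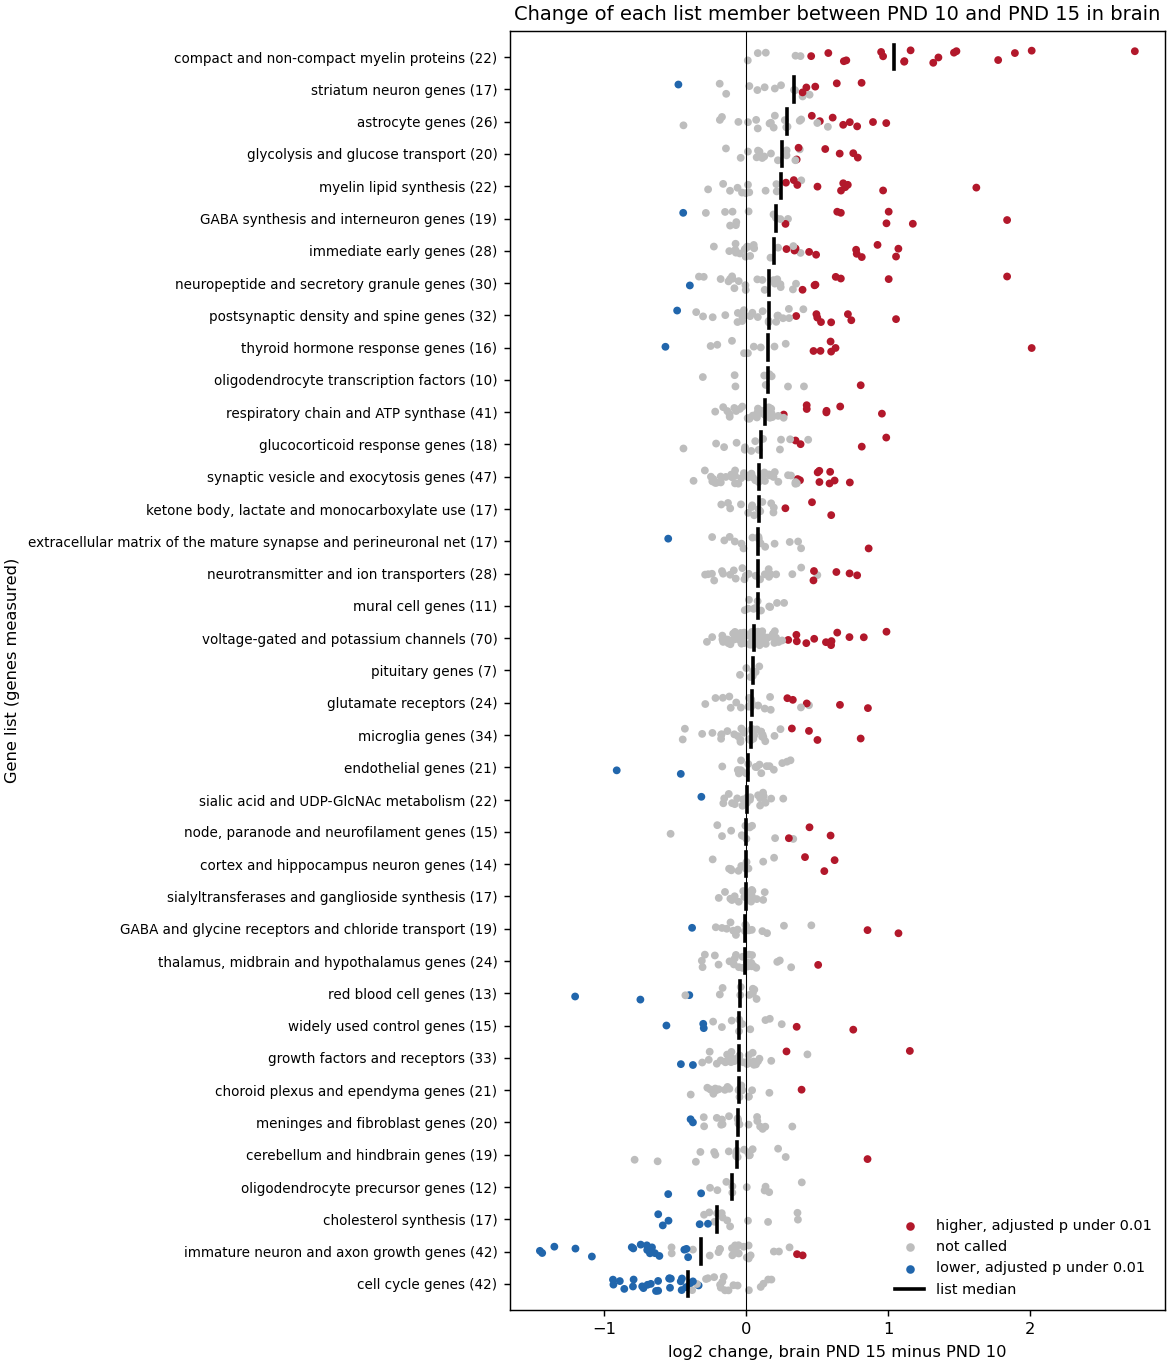
The log2 change (PND 15 minus PND 10) of each measured member of the 39 gene lists, one list per row, ordered by median (black bar); red points were called higher, blue called lower and grey not called. Myelin proteins have a median of 1.04 at the top, and immature neuron genes and cell cycle genes have medians of -0.32 and -0.41 at the bottom.

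The step was then set against the step before it, PND 5 to PND 10, which shares the PND 10 samples, and against colon. The difference of the steps was called for 208 probes (0.924%), 123 higher (0.546%) and 85 lower (0.377%). Scaling each array to its 75th percentile in place of quantile normalization turned this split to 112 higher and 235 lower, so the direction of this count is not settled. Among genes for which this difference was called, whose ages PND 15 and PND 10 did not overlap and which were detected in all samples of the higher age, the largest were those of Atp5mk, Cort, Ptn, Rbbp7 and Mk1, of which all but Cort had been lower at PND 10 than at PND 7 on average. The lowest under the same conditions were those of Slc22a3, Tpx2, Crmp1, Ccna2 and Arhgdig, none of which was called between PND 7 and PND 10. Gfap (-1.52) and Hmgb2 (-1.34), called in this difference but with overlapping ages, were lower still. For Mbp the difference was 0.07 (adjusted p = 0.96), for Mog 0.02 and for Ugt8 0.00, and none of the 3 passed. Mal had 1.21 ± 0.29 SE (adjusted p = 0.0114) and Mobp -1.11 ± 0.44 SE (adjusted p = 0.209), so these myelin genes differed widely in this value and none of the 5 passed. At PND 5 Mal was detected in 3 and Mobp in 1 of the 6 samples, so their earlier step is read against background. The change in brain minus the change in colon was called for 281 probes (1.25%), 153 higher (0.679%) and 128 lower (0.568%). The named genes at the top were Mal, Mbp, Mog, Cort and Mobp, and at the bottom Tubb2b, Crabp1, Dpysl3, Tubb3 and Crmp1. In colon Mal was detected in all 6 samples of both ages and Mobp in none. Mbp was detected in 4 of the 6 colon samples at PND 15 and 2 at PND 10, and Cort in 0 and 1. For Mobp, Cort and Mbp the difference thus sets the brain change against background in colon. Olr59, an olfactory receptor by the array's annotation, was also among the 12 largest rises, at 365 ± 77.2 at PND 15 and 128 ± 16.7 at PND 10, and Gipr among the 12 largest falls, at 105 ± 9.72 at PND 15 and 219 ± 40.9 at PND 10. Both names come from an old annotation that was not checked against probe sequences.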

How the data were processed

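Whole-genome expression was measured on Illumina RatRef-12 BeadChips in brain and colon from E21 to PND 22, and the 12 brain samples of PND 15 and PND 10 were compared here. The deposited table held bead signal intensity, a linear value summarized by the authors in BeadStudio and not normalized between arrays, with a detection p-value for each probe. Array number and bead number limit the precision, and no count of molecules is available. The authors' quantile normalized intensity was used as an alternative only.

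All 107 arrays were quantile normalized together, values under 1 were set to 1, and log2 was taken. limma 3.58.1 in R 4.3.3 was fitted with 1 mean per age over the 54 brain samples, and p-values were adjusted over all 22523 probes by the Benjamini-Hochberg method. A probe was called at an adjusted p under 0.01, and detected at a detection p under 0.05. Differences from the step before and from colon were contrasts of the same kind. Single genes also received a two-sided exact permutation test over the samples. Signals in the text are linear and normalized, and SDs are over samples. The fit was tested on simulated data.

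Gene names came from the platform annotation, updated through RefSeq, and 13793 probes carried 1 symbol, 8730 none. A gene was read at its brightest probe. The 39 gene lists held 867 measured genes, and 55 genes stood in more than 1 list. Genes named were the 12 largest rises and falls without overlap and detected in all samples of the higher age, up to 6 called members per list, the 5 largest each way in the other contrasts, and a fixed set of markers. Some genes are not reported here. List members outside this rule that are named, such as Sox10, Olig1, Sst, Gabra6, Grm8, Efnb2 and Hmgb1, were chosen after their values were seen. The members and the lists were chosen with earlier results of these data known. Alternatives covered background correction, scaling, samples in the fit, filters, floor, moderation, pairing, test, threshold, weights and leaving out each sample.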

Additional observations from a re-analysis of the deposited data

Results flagged for a closer look

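In 17 of 312 groups of 6 samples 1 sample lay far from the other 5 for a named gene, against about 1 in 20 groups that chance flags. Of these 12 were at PND 15 and 5 at PND 10, and 7 of the 12 belonged to the PND 15 sample numbered 6. That sample was low in Atp2b3 (1488), Igfbpl1 (172), Klf9 (1987), Rrm2 (89.3) and Vcan (281) and high in Camk2a (98.0) and Gpi (7636). The other PND 15 samples that stood apart were sample 4 in Car2 (779, low), Egr1 (759, low) and Nagk (131, high), sample 5 in Kcnc1 (506, high) and sample 1 in Olr59 (228, low). At PND 10 they were sample 3 in Ermn (69.7, low), sample 5 in Kcnc1 (317.5, high) and Mog (422, high), sample 6 in Ppp1r1b (1193, high) and sample 1 in Vip (184, low). These are normalized signals, and no cause was tested.

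The step from PND 10 to PND 15 differed from the step between PND 5 and PND 10 in 208 probes. Among genes called in this difference whose ages did not overlap, the largest log2 differences were 2.14 for Atp5mk, 1.57 for Cort, 1.42 for Ptn, 1.26 for Rbbp7 and 1.07 for Mk1, and -1.21 for Slc22a3, -1.12 for Tpx2, -1.12 for Crmp1, -1.10 for Ccna2 and -1.07 for Arhgdig. Gfap (-1.52) and Hmgb2 (-1.34), whose ages overlap, were lower still. The steps share the PND 10 samples.

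The step differed between brain and colon in 281 probes. Brain minus colon was 2.64 for Mal, 1.89 for Mbp, 1.85 for Mog, 1.79 for Cort and 1.73 for Mobp, and -1.41 for Tubb2b, -1.24 for Crabp1, -1.20 for Dpysl3, -1.18 for Tubb3 and -1.16 for Crmp1. Mobp, Cort and Mbp were near background in colon, so their values set the brain change against background there.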

How the results depend on the processing

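Against the 1753 probes called, other settings gave 1344 (75th percentile scaling) to 1954 (probes detected throughout 1 age), except 2946 by the methods' ordinary test at an unadjusted p under 0.01 (1635 after Benjamini-Hochberg adjustment), 2662 at an adjusted p under 0.05 and 466 with at least a 1.5-fold change. Leaving out 1 sample gave 1366 to 1740. Of alternatives chosen after seeing the data, PND 7 in place of PND 10 gave 2350, PND 22 in place of PND 15 gave 3178, dim arrays alone 578 and bright arrays alone 364, both with fewer samples, and array brightness as a covariate 1767. With the replicate number as a block, 1791 were called. The numbers are not stated to pair the samples, and same-numbered samples correlated in their deviations at -0.02 to 0.32, 3 of the 6 pairs over 0.1 and 3 of the 6 samples best with their own number. For the step against the step before (208), the block gave 229, 75th percentile scaling 347 and an adjusted p under 0.05 479. For brain against colon (281), 75th percentile scaling gave 147 and an adjusted p under 0.05 513.

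Of 156 named genes 148 were called, 109 of them under every setting but those added after seeing the data. With PND 7 in place of PND 10 the change of Gfap turned to 0.76 (adjusted p = 2.78e-05 in limma), against -0.19. Scaling to the 75th percentile changed the counts called by over 1.5 times for genes of synaptic vesicles (4 higher in place of 9), respiratory chain (3 in place of 7), astrocytes (5 in place of 8), glutamate receptors and transporters (3 in place of 5 each), ketone use (1 in place of 3), growth factors and control genes (1 in place of 2 each), immature neurons (0 in place of 2), and control genes, meninges and GABA receptors called lower (5, 1 and 0 in place of 3, 2 and 1). Myelin protein genes called higher were 16 of 22 on dim and 14 on bright arrays alone. Several other lists kept fewer of their calls there, with fewer samples. Cell cycle genes called lower were 15 and 7 in place of 24, immature neuron genes 15 and 9 in place of 18, and cholesterol genes 2 and 0 in place of 5. Synaptic vesicle genes called higher were 4 and 1 in place of 9, channels 3 and 2 in place of 12, and glutamate receptors 1 and 1 in place of 5. Without 1 sample, 25 of the 148 lost the call in at least 1 case, most often Bdnf and Slc22a6 (9 cases), Nrgn and Grin1 (8), and Glra2, C1qa and Slc24a2 (7). The causes were not tested, and signals near background limit Mag and Opalin at PND 10.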

Other observations

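The comparison of PND 22 with PND 10 shares its PND 10 samples with that of PND 15, so their calls are not independent. Of the 887 probes higher at PND 15 than at PND 10, 720 were also called higher at PND 22 than at PND 10, and of the 866 lower probes 765 were also called lower. Mbp averaged 407 ± 116 at PND 10, 1606 ± 281 at PND 15 and 3472 ± 645 at PND 22 (SD, n = 6 each). Cort averaged 124 ± 19.7, 448 ± 96.2 and 379 ± 50.9 at the same ages, and Crmp1 6911 ± 1299, 2559.7 ± 684 and 1551 ± 197. Hbb averaged 16616 ± 1435, 10448 ± 3814 and 20735 ± 1576, and its PND 15 mean was the lowest of the 9 ages in brain.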
